A study of Mus musculus with 12 samples.

Results

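Hypoxia-inducible factor (HIF) is the transcription factor through which animal cells respond to low oxygen. The HIF genes described here were 34 genes of its machinery and its targets, looked up by symbol in a table of 31719 gene symbols measured by RNA sequencing. All 34 were found, none of them repeated. The list was selected on known HIF biology with the FPKM of the 4 groups of these same libraries already seen, and no threshold on a value was used. The counts and tests below therefore describe these genes and are no independent evidence of a direction. The glycolytic targets of HIF were kept as a separate list.

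The cells were RAW264.7, a mouse macrophage-like line labelled wild type, in 4 groups of 3 libraries. They were left untreated, given anti-CD36, an antibody diluted 1 in 100, given lipopolysaccharide (LPS) at 50 ng/ml, or given both (LPS+anti-CD36). LPS is a bacterial cell wall component sensed by the receptor TLR4. CD36 on macrophages takes up lipids and carries fatty acids. The design compared expression between these treatments. No isotype control antibody was among the groups, and the labels gave neither a treatment time nor an oxygen tension. Whether replicates were separate cultures is not stated. The p-values therefore measure the spread between these libraries only.

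Depth, recovered from the steps of the values, ran from 30070447 to 54137809 reads per library. Of 8 macrophage markers, 7 reached 1 FPKM and Mertk was below 1 FPKM in every library. No marker of fibroblasts, epithelial cells, T cells, B cells or neutrophils reached 1 FPKM in any library. The summed level of 8 mitochondrial mRNAs, taken as a sign of RNA quality, was 29700 to 36400 FPKM in untreated cells, 32600 to 37100 with anti-CD36, 23600 to 25300 with LPS and 23100 to 23700 with both. The ranges of both LPS groups lay below those of the groups without LPS, and the part of this in the results was not tested.

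HIF is a dimer of an oxygen-regulated alpha subunit, Hif1a or Epas1, and the constant partner Arnt. In oxygenated cells prolyl hydroxylases (Egln1, Egln2 and Egln3) modify the alpha subunit so that Vhl marks it for destruction, and the asparaginyl hydroxylase Hif1an blocks its coactivator contact. Macrophages also use this pathway in inflammation, where LPS is known to raise HIF-1 alpha in air, and several targets, Egln3 among them, feed back on the pathway.

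Levels are FPKM, reads scaled by gene length and library depth, given for replicates 1, 2 and 3 in that order. Changes are differences of mean log2(FPKM + 1), which understate the change of genes at low levels, and fold values are ratios of mean FPKM. A gene passed the test, and is said to have risen or fallen, at an adjusted p under 0.05 in a limma model over all 10276 genes that reached 1 FPKM in 3 or more libraries. Of the 34 genes, 32 were tested. The 2 others were Epas1, encoding the second alpha subunit, which reached at most 0.0221 FPKM, and P4ha2, a collagen prolyl hydroxylase, which reached at most 0.119 FPKM. Of the tested genes, Egln3 and Kdm5b met the filter through libraries with LPS (Egln3 in the 3 LPS libraries and 1 untreated library) and Ppfia4 through libraries without LPS, so these 3 could hardly pass it without a difference. Counts without the 3 are given below.

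The sample descriptions name a maker of single-cell kits, while the protocol is one for total RNA and the table has 1 column per library. The values were treated as bulk, where fewer cells that express a gene and less RNA per cell cannot be told apart.

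Most of the genes were lower with LPS+anti-CD36 than with LPS. Of the 32 tested genes, 25 fell when the antibody was added to LPS and 0 rose, while of all tested genes 8.14% fell and 7.34% rose. The median change of the 32 was −0.66, beside 0.02 over all tested genes. The changes of the 25 ran from −0.28 (Hif1an) to −2.08 (Ndrg1). In 26 of the 32, all 3 LPS+anti-CD36 libraries were below all 3 LPS libraries, which held for 16.4% of all tested genes. Without Egln3, Kdm5b and Ppfia4, 23 of 29 fell and 0 rose. The genes that did not pass were Arnt, Egln2, Kdm4c, Cited2, Wsb1, Ppfia4 and Car9. Of the 25 falls, 17 were called in every one of the alternative settings in which the gene was tested, and 8 were lost in at least 1 (Hif1a, Hif1an, Kdm3a, P4ha1, Plod1, Fgf11, Higd1a and Fam162a).

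LPS alone moved the genes in both directions. Against untreated cells 16 of the 32 rose and 3 fell (Egln2, Ppfia4 and Ankrd37), while of all tested genes 16.6% rose and 33.1% fell. The median change was 0.27, beside −0.14 over all tested genes. Without Egln3, Kdm5b and Ppfia4, 14 of 29 rose and 2 fell. Of the 19 calls, 14 were made in every alternative setting in which the gene was tested. The other 5 (Egln2, Kdm4b, Kdm4c, Jmjd6 and Car9) were each lost without single libraries and with only the groups compared. Anti-CD36 alone lowered 1 of the 32, Ak4, and raised 0, beside 0.195% and 0.146% of all tested genes. At an unadjusted p under 0.05 that comparison held 9 of the 32 and 1969 of the 10276 genes. The median change was −0.13, beside −0.01 over all tested genes.

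**Figure D1:**
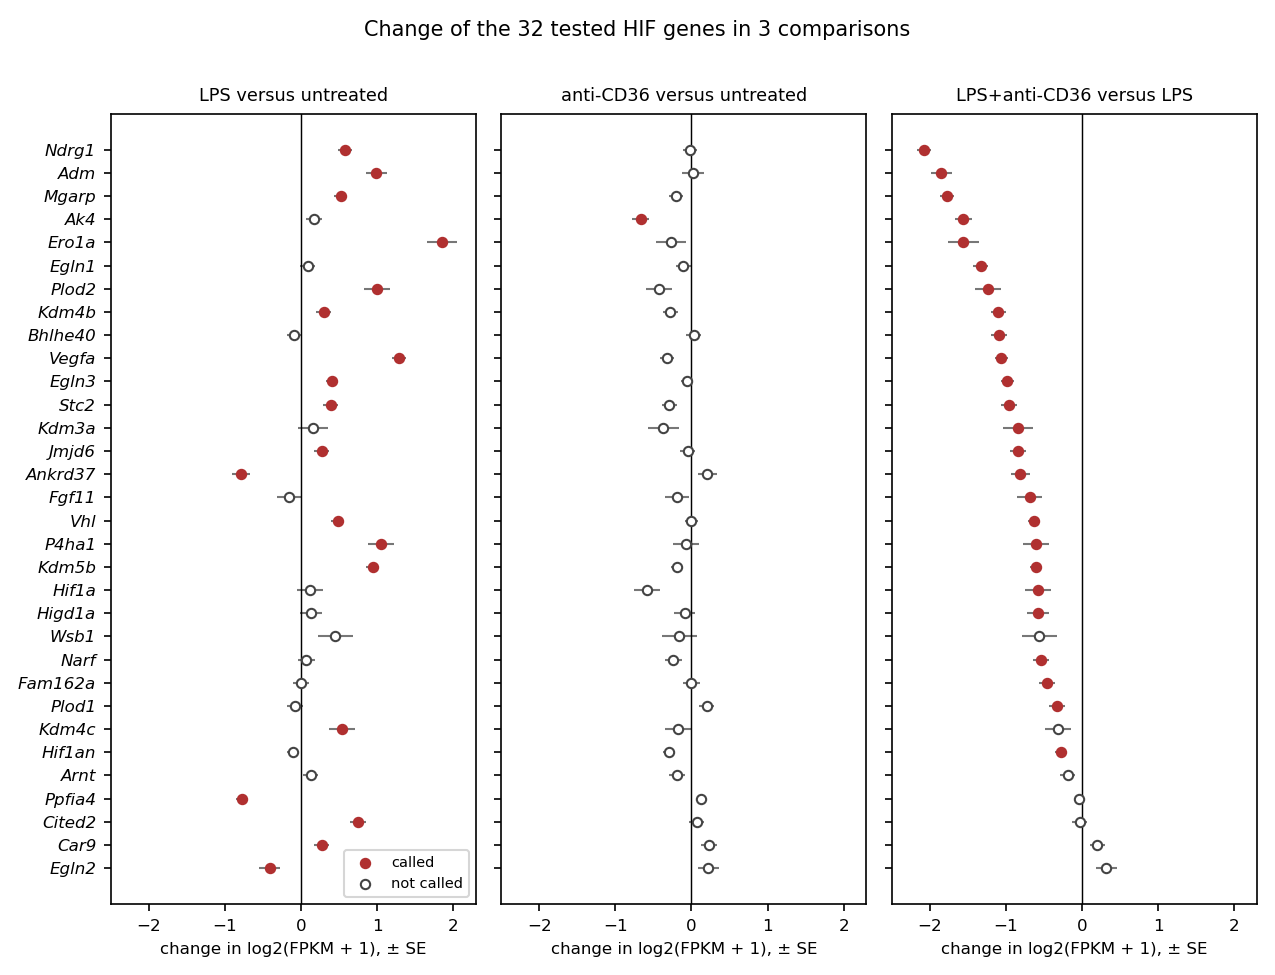
Change in log2(FPKM + 1) with its SE for each of the 32 tested HIF genes in 3 comparisons, sorted by the change between LPS+anti-CD36 and LPS; filled points passed the limma test (adjusted p under 0.05). In the right panel 25 points passed, all left of 0, and in the middle panel Ak4 is the 1 that passed.

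Promoter windows of these genes were read for the core letters of the HIF binding element, ACGTG and GCGTG, on both strands, because the genes moved together. RefSeq (GRCm38.p6) gave a window of 250 bases before the most upstream start for 29 of the 34 genes, all but Epas1, Ndrg1, Bhlhe40, Plod2 and Kdm4b. ACGTG was in 16 of the 29 windows (55.2%), against 16.5% of 27025 gene promoters and 23.2% of the 8042 promoters of tested genes. GCGTG was in 19 (65.5%), against 28.3% and 47.6%. Either was in 24 (82.8%), against 38.6% and 59.3%. Among the genes that fell with LPS+anti-CD36 against LPS 17 of 21 windows held either motif (81.0%), and among the genes tested that did not pass 6 of 7 did (85.7%). Such letters have been used to recognise HIF targets, so these shares are a description, and a match is not a binding site.

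The windows of 4 genes that fell (Adm, Egln3, P4ha1 and Hif1a) and of 2 that did not pass (Egln2 and Ppfia4) are shown, since they show that motifs occur on both sides of that division. All 6 lie outside annotated exons. Each runs 5′ to 3′ on the gene's strand and ends at the base before the start, and capitals mark ACGTG or GCGTG, which read CACGT or CACGC where the motif is on the other strand. CACGTG holds ACGTG on both strands and was counted once per strand.
Adm, chr7:110627407-110627656, plus strand: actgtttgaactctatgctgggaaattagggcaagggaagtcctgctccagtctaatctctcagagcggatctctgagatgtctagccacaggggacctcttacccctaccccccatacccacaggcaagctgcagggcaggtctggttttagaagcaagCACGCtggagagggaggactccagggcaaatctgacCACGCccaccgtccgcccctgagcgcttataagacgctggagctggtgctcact
Egln3, chr12:54203875-54204124, minus strand: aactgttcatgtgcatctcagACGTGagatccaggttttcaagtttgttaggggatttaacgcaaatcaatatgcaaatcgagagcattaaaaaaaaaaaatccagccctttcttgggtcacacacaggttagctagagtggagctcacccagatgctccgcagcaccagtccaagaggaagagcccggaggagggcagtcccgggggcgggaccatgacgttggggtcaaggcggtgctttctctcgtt
P4ha1, chr10:59323046-59323295, plus strand: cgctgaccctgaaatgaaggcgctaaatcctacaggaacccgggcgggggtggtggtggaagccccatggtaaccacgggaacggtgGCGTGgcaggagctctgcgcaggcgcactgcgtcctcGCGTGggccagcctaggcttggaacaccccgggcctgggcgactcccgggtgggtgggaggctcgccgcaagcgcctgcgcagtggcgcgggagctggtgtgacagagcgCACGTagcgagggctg
Hif1a, chr12:73907617-73907866, plus strand: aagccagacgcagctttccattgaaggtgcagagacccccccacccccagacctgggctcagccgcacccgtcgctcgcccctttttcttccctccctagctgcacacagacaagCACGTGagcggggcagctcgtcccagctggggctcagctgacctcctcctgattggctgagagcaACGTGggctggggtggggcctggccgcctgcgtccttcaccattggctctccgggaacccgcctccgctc
Egln2, chr7:27166803-27167052, minus strand: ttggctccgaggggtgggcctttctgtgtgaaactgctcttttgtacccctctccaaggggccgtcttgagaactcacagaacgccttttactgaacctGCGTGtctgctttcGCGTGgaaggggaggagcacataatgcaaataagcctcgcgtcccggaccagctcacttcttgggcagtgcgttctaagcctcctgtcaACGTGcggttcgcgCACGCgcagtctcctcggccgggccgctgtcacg
Ppfia4, chr1:134344717-134344966, minus strand: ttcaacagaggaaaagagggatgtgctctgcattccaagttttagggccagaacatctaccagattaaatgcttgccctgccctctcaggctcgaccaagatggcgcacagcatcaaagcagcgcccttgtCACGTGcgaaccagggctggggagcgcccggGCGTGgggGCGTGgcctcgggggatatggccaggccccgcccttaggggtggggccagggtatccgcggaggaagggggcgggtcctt

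Counted from −1 at the last base before the start, with the position of a motif's first printed base, Adm held GCGTG at −90 and −54, both on the other strand. In Egln3 the single ACGTG began at −229. P4ha1 held GCGTG at −163 and −126 and ACGTG at −16. Hif1a held the palindrome CACGTG from −135 and ACGTG at −70. Its window lies within the gene as GENCODE M21 draws it, which starts further upstream. Egln2 held 4 matches (−151, −137, −48 and −34), more than Adm or Egln3, and Ppfia4 held the palindrome from −119 with GCGTG at −88 and −80. The Ppfia4 window lies upstream of the gene as GENCODE M21 draws it, which starts at chr1:134332928, away from the window.

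Among the HIF subunits, Hif1a was abundant and Arnt moderate. Hif1a was at 51.2, 57.8 and 76.4 FPKM in untreated cells, 34.9, 46.7 and 40.4 with anti-CD36, 53.3, 69.1 and 78.7 with LPS and 40.7, 43.8 and 47.5 with LPS+anti-CD36. Every library with the antibody was below every library without it. With LPS present it fell 1.52-fold (log2 change −0.58, SE 0.17, adjusted p = 0.0412). Without LPS the mean was also 1.52-fold lower, but this did not pass (log2 change −0.58, SE 0.17, adjusted p = 0.148). The unadjusted limma p was 0.00538 with LPS and 0.00532 without. The different calls thus came from the adjustment, which was made within each comparison. LPS itself gave a change of 0.12, and the interaction (the LPS change in the presence of the antibody minus that in its absence) was 0.00 (95% interval −0.52 to 0.53). The fall of Hif1a against LPS was held in 12 of 22 alternative settings, with adjusted p from 0.000247 to 0.155. It was lost, for example, without LPS replicate 2 and without LPS+anti-CD36 replicate 1.

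Arnt, the constant partner, was at 6.80, 7.66 and 9.03 FPKM in untreated cells, 5.89, 7.29 and 6.91 with anti-CD36, 7.93, 8.86 and 9.17 with LPS and 7.07, 7.41 and 7.80 with both. The LPS+anti-CD36 libraries were all below the LPS libraries, but the change did not pass the test (log2 change −0.19, SE 0.10, adjusted p = 0.207), with a 95% interval from −0.42 to 0.03. Neither LPS nor the antibody alone moved Arnt past the threshold.

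Of the 3 prolyl hydroxylases, Egln1 and Egln3 fell with LPS+anti-CD36 against LPS and Egln2 did not. Egln1, the main oxygen sensor of most cells, was at 16.4, 15.7 and 13.1 FPKM untreated, 14.0, 13.3 and 14.3 with anti-CD36, 18.5, 15.3 and 14.6 with LPS and 6.16, 5.87 and 5.32 with both. The untreated range overlapped those of anti-CD36 and of LPS, and all 3 LPS+anti-CD36 libraries lay below every other, 2.79-fold under LPS (log2 change −1.33, SE 0.10, adjusted p = 1.37e-05). The interaction passed (interaction −1.22, SE 0.15, adjusted p = 0.00134).

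Egln3, itself a HIF target in many cells, was low throughout, at 0.888, 1.04 and 0.936 FPKM untreated, 0.890, 0.848 and 0.863 with anti-CD36, 1.55, 1.56 and 1.69 with LPS and 0.408, 0.224 and 0.332 with both. It rose with LPS (log2 change 0.41, SE 0.08, adjusted p = 0.000772) and was 4.97-fold lower with LPS+anti-CD36 than with LPS (log2 change −0.98, SE 0.08, adjusted p = 1.31e-05). Having met the filter through the LPS libraries, where it is high, its tests against LPS and its interaction are given as a description. The LPS+anti-CD36 libraries held 24 to 43 reads of Egln3 and were below all others. Its interaction was also past the threshold (interaction −0.91, SE 0.11, adjusted p = 0.00107).

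Egln2, the third prolyl hydroxylase, was at 12.6, 11.5 and 9.96 FPKM untreated, 16.4, 11.8 and 12.4 with anti-CD36, 9.93, 7.73 and 7.31 with LPS and 11.0, 10.8 and 9.87 with both. It fell with LPS (log2 change −0.41, SE 0.14, adjusted p = 0.0259), a call made in 15 of 22 alternative settings, with adjusted p up to 0.191. It was lost with median-of-ratios scaling, with no filter, with only the groups compared, and without untreated replicate 1 or 2 or LPS replicate 2 or 3. Its change with LPS+anti-CD36 against LPS was positive and did not pass (log2 change 0.32, SE 0.14, adjusted p = 0.126). The groups overlapped there, and 3 of 22 alternative settings called it higher.

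Hif1an, which hydroxylates an asparagine of the alpha subunit, was at 6.33, 5.99 and 6.75 FPKM untreated, 4.70, 5.17 and 5.04 with anti-CD36, 5.60, 5.90 and 5.94 with LPS and 4.49, 4.67 and 4.64 with both. As with Hif1a, all 6 libraries with the antibody were below all 6 without it. The fall passed with LPS present (log2 change −0.28, SE 0.07, adjusted p = 0.0185) but not without LPS (log2 change −0.30, SE 0.07, adjusted p = 0.0968). The unadjusted limma p was 0.0014 with LPS and 0.000886 without. The adjustment, made within each comparison, thus gave the different calls, and the change without LPS was no smaller. The interaction was 0.02 (95% interval −0.19 to 0.23). The call with LPS was lost in 6 of 22 alternative settings, among them those without LPS replicate 2 or 3 and without any 1 of the LPS+anti-CD36 libraries.

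Vhl, the substrate receptor of the ubiquitin ligase that removes the alpha subunit, was at 11.2, 11.5 and 10.0 FPKM untreated, 10.2, 11.0 and 11.5 with anti-CD36, 15.7, 15.1 and 16.0 with LPS and 10.7, 9.50 and 9.17 with both. The 3 LPS libraries stood above the other 9. Vhl rose with LPS (log2 change 0.48, SE 0.08, adjusted p = 0.000373) and fell when the antibody was added (log2 change −0.63, SE 0.08, adjusted p = 0.000552), and the interaction passed (interaction −0.62, SE 0.11, adjusted p = 0.0195).

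**Figure D2:**
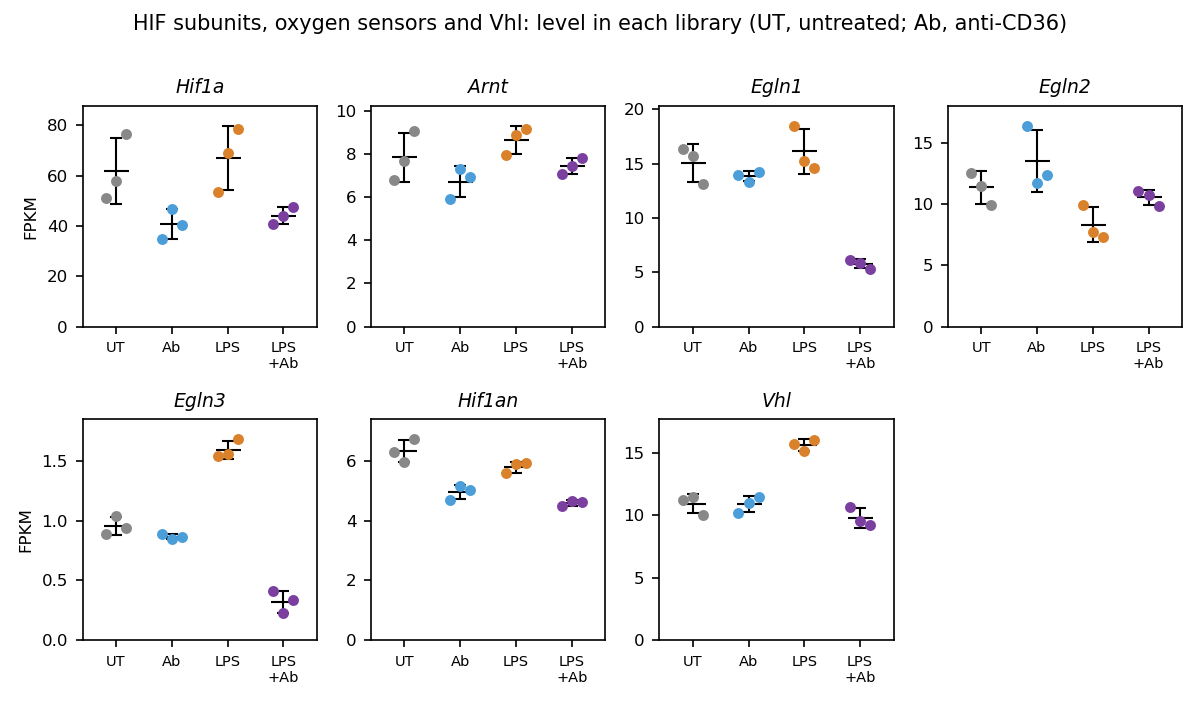
Level (FPKM, linear axis from 0) of the HIF subunits, oxygen sensors and Vhl in each of 12 libraries; points are libraries, the bar is the mean and whiskers are ± 1 SD (n = 3). Egln1 and Egln3 are lowest in the 3 LPS+anti-CD36 libraries, Hif1a and Hif1an are lower in both groups with the antibody, and Vhl is highest with LPS alone.

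The genes grouped here as JmjC oxygenases, iron-dependent enzymes like the prolyl hydroxylases, numbered 5. Hif1an was placed with the oxygen sensors and is not counted among the 5. Of the 5, 4 fell with LPS+anti-CD36 against LPS (Kdm3a, Kdm4b, Kdm5b and Jmjd6) and Kdm4c did not pass. With LPS alone 4 rose, Kdm3a being the exception. The rise of Kdm4b was lost with only the groups compared and without untreated replicate 1 or 3 or LPS replicate 1 (adjusted p up to 0.0831). That of Jmjd6 was lost with only the groups compared (0.132) and without untreated replicate 2 or 3 or LPS replicate 1 or 2 (up to 0.121). That of Kdm4c was lost without untreated replicate 1 or 2 or LPS replicate 2 or 3. It was also lost with no filter, TPM scaling and only the groups compared (up to 0.0871).

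Jmjd6, a lysyl hydroxylase of splicing factors, was at 22.2, 20.1 and 17.5 FPKM untreated, 19.1, 18.7 and 19.5 with anti-CD36, 27.1, 23.1 and 22.5 with LPS and 13.3, 13.5 and 12.5 with both. Its LPS+anti-CD36 libraries were below all others (log2 change −0.84, SE 0.10, adjusted p = 0.000229), and the interaction passed (interaction −0.78, SE 0.13, adjusted p = 0.0141). Kdm4b, a histone demethylase, was at 4.10, 4.34 and 4.17 FPKM untreated, 3.16, 3.75 and 3.00 with anti-CD36, 6.37, 5.10 and 4.85 with LPS and 2.20, 1.94 and 1.87 with both. The order was the same, with LPS highest and the combination lowest. It fell 2.72-fold against LPS (log2 change −1.10, SE 0.10, adjusted p = 4.18e-05), with an interaction of −0.82.

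Kdm5b, a histone demethylase that removes an active promoter mark, was at 0.577, 0.675 and 0.830 FPKM untreated, 0.418, 0.559 and 0.468 with anti-CD36, 2.02, 2.41 and 2.35 with LPS and 1.08, 1.13 and 1.25 with both. It rose 3.25-fold with LPS (log2 change 0.94, SE 0.08, adjusted p = 2.49e-06), and with the antibody added stayed above both groups without LPS. Kdm5b met the filter only through libraries with LPS, where it is high, so its tests are given as a description. Its fall against LPS was 1.96-fold (log2 change −0.60, SE 0.08, adjusted p = 0.00104) and its interaction did not pass (interaction −0.41, SE 0.12, adjusted p = 0.206). Kdm3a, a demethylase of a repressive histone mark, varied more, at 4.62, 5.78 and 8.10 FPKM untreated, 4.05, 4.77 and 4.53 with anti-CD36, 4.64, 7.34 and 9.18 with LPS and 3.12, 3.35 and 3.67 with both. The LPS+anti-CD36 libraries were below all others (log2 change −0.84, SE 0.20, adjusted p = 0.0192), and the call was lost in 4 settings, those without LPS replicate 2 or 3 and without LPS+anti-CD36 replicate 1 or 2. Kdm4c, a paralog of Kdm4b, had means of 3.94 ± 0.968, 3.32 ± 0.455, 6.21 ± 1.50 and 4.71 ± 0.762 FPKM (SD, n = 3) in the same group order. It rose with LPS (log2 change 0.54, SE 0.17, adjusted p = 0.0218).

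The collagen-modifying enzymes and the oxidase Ero1a had the highest median LPS change of the roles, 1.02 over the 4 tested, and 3 of them rose. All 4 (P4ha1, Plod1, Plod2 and Ero1a) fell when the antibody was added. Ero1a, which forms disulfide bonds in the endoplasmic reticulum, was at 33.4, 38.5 and 51.3 FPKM untreated, 27.2, 39.6 and 34.4 with anti-CD36, 114, 157 and 183 with LPS and 44.2, 50.5 and 55.0 with both. It rose 3.69-fold with LPS (log2 change 1.85, SE 0.20, adjusted p = 1.11e-05) and was 3.04-fold lower with the combination than with LPS (log2 change −1.56, SE 0.20, adjusted p = 0.000518). The interaction was large but did not pass (interaction −1.29, SE 0.28, adjusted p = 0.0516), and 7 of 21 alternative settings called it. The 3 LPS libraries stood above all others and ranged widely.

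Plod2, a collagen lysyl hydroxylase, was at 1.76, 2.20 and 2.86 FPKM untreated, 1.20, 1.83 and 1.25 with anti-CD36, 4.11, 5.77 and 6.83 with LPS and 1.45, 1.79 and 2.10 with both. The LPS libraries were above all others, and the combination overlapped the groups without LPS. It rose with LPS (log2 change 1.00, SE 0.17, adjusted p = 0.000509) and fell with the antibody added (log2 change −1.23, SE 0.17, adjusted p = 0.00102). P4ha1, the catalytic subunit of collagen prolyl hydroxylase, was at 28.2, 32.8 and 41.2 FPKM untreated, 28.1, 37.0 and 31.8 with anti-CD36, 56.7, 75.1 and 82.4 with LPS and 40.6, 45.9 and 53.0 with both. It rose 2.10-fold with LPS (log2 change 1.05, SE 0.17, adjusted p = 0.000318), and its fall of 1.54-fold with the antibody (log2 change −0.60, SE 0.17, adjusted p = 0.0371) was held in 13 of 22 settings. It was lost, among others, without LPS replicate 2 or 3 and without LPS+anti-CD36 replicate 1 or 2. Plod1, another collagen lysyl hydroxylase, had means of 13.7 ± 0.607, 15.9 ± 0.664, 13.1 ± 2.13 and 10.1 ± 0.251 FPKM (SD, n = 3). Its fall against LPS (log2 change −0.33, SE 0.10, adjusted p = 0.0432) was lost in 11 of 22 settings, for example without LPS replicate 2 and without any 1 of the LPS+anti-CD36 libraries.

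The 3 genes for secreted factors (Vegfa, Adm and Stc2) rose with LPS and fell with LPS+anti-CD36 against LPS. Fgf11, listed with them though its product is intracellular, also fell in that comparison. Adm, the vasodilator peptide adrenomedullin, was at 4.68, 6.47 and 6.82 FPKM untreated, 4.96, 7.09 and 6.25 with anti-CD36, 12.5, 11.5 and 14.3 with LPS and 2.97, 2.88 and 2.58 with both. The LPS libraries were above and the LPS+anti-CD36 libraries below all others. Adm rose 2.13-fold with LPS (log2 change 0.99, SE 0.14, adjusted p = 0.000108) and was 4.54-fold lower with the combination than with LPS (log2 change −1.85, SE 0.14, adjusted p = 1.09e-05). Its interaction was −1.87. This is the gene whose window above held GCGTG on the other strand and no ACGTG.

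Vegfa, the angiogenic growth factor, was at 11.5, 12.2 and 12.5 FPKM untreated, 8.35, 10.7 and 9.34 with anti-CD36, 29.8, 31.3 and 32.0 with LPS and 14.0, 15.3 and 13.6 with both. It rose 2.57-fold with LPS (log2 change 1.29, SE 0.09, adjusted p = 2.54e-07). With the antibody it was 2.17-fold below LPS (log2 change −1.06, SE 0.09, adjusted p = 2.19e-05), and its lowest combination library was still above the highest untreated one. LPS therefore still raised Vegfa in the presence of the antibody (log2 change 0.55, SE 0.09, adjusted p = 0.000305), by less than in its absence (interaction −0.74, SE 0.13, adjusted p = 0.0127).

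Stc2, a secreted glycoprotein, was at 5.49, 6.39 and 5.52 FPKM untreated, 3.89, 5.25 and 4.56 with anti-CD36, 8.77, 7.39 and 7.57 with LPS and 3.65, 3.79 and 3.27 with both. LPS was highest and the combination lowest (log2 change −0.96, SE 0.10, adjusted p = 0.000157). Its interaction did not pass (interaction −0.67, SE 0.15, adjusted p = 0.0539). Fgf11, an intracellular member of the fibroblast growth factor family, was at 7.93, 10.1 and 11.4 FPKM untreated, 7.19, 9.82 and 8.36 with anti-CD36, 6.66, 8.88 and 10.6 with LPS and 4.64, 5.15 and 5.02 with both. LPS did not move it past the threshold, and the combination was below every other library (log2 change −0.69, SE 0.16, adjusted p = 0.0166). That call was lost in 4 settings, those without LPS replicate 2 or 3 and without LPS+anti-CD36 replicate 1 or 2.

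The 4 mitochondrial and energy genes all fell when the antibody was added to LPS, and only Mgarp of them rose with LPS. Ak4, an adenylate kinase of the mitochondrial matrix, was at 32.0, 37.0 and 37.0 FPKM untreated, 19.6, 25.4 and 21.0 with anti-CD36, 37.6, 42.0 and 39.7 with LPS and 11.6, 13.1 and 13.8 with both. The 4 groups ran in the order LPS, untreated, anti-CD36 and the combination with no overlap between neighbours. Ak4 was the 1 gene that fell with the antibody alone, 1.61-fold (log2 change −0.67, SE 0.11, adjusted p = 0.036). That call was held in 12 of 22 settings. It was lost without untreated replicate 2 or 3, anti-CD36 replicate 1 or 3, LPS replicate 2 or any 1 of the LPS+anti-CD36 libraries. TPM scaling and only the groups compared also lost it, with adjusted p up to 0.217 over all settings. With LPS present Ak4 fell 3.09-fold (log2 change −1.56, SE 0.11, adjusted p = 6.23e-06), and the interaction was −0.89.

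Mgarp, a mitochondrial protein with a glutamate-rich stretch, was at 2.61, 2.69 and 2.17 FPKM untreated, 1.95, 2.15 and 2.02 with anti-CD36, 4.49, 3.95 and 3.56 with LPS and 0.394, 0.408 and 0.587 with both. It had the largest ratio of mean FPKM of the 32 genes, 8.63-fold below LPS (log2 change −1.77, SE 0.09, adjusted p = 1.26e-06), on 30 to 59 reads per LPS+anti-CD36 library. LPS raised it in the absence of the antibody (log2 change 0.52, SE 0.09, adjusted p = 0.000709) and lowered it in its presence (log2 change −1.06, SE 0.09, adjusted p = 2.36e-06), and the interaction passed (interaction −1.57, SE 0.13, adjusted p = 0.000143).

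Higd1a, a small protein of the mitochondrial inner membrane, was at 24.5, 19.6 and 18.9 FPKM untreated, 19.4, 21.9 and 17.6 with anti-CD36, 27.3, 22.0 and 20.3 with LPS and 17.7, 14.3 and 13.4 with both. The LPS+anti-CD36 libraries were all below the LPS libraries, with a 1.53-fold fall (log2 change −0.58, SE 0.14, adjusted p = 0.0198). Fam162a, a mitochondrial protein linked to cell death, had means of 125 ± 18.2, 124 ± 4.35, 125 ± 13.6 and 90.1 ± 5.85 FPKM (SD, n = 3). The first 3 groups overlapped and the combination lay below them (log2 change −0.46, SE 0.11, adjusted p = 0.0206). Both calls were lost in 4 settings, which for Fam162a were those without LPS replicate 2 and without any 1 of the LPS+anti-CD36 libraries. For Higd1a they were those without LPS replicate 2, without LPS+anti-CD36 replicate 2 or 3, and with only the compared groups in the fit.

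The 2 transcriptional feedback targets parted. Bhlhe40, a transcriptional repressor with roles in the circadian clock and in immune cells, was at 7.61, 8.71 and 6.99 FPKM untreated, 7.93, 7.97 and 7.94 with anti-CD36, 8.01, 7.28 and 6.35 with LPS and 2.57, 2.93 and 3.08 with both. The first 3 groups overlapped, and the LPS+anti-CD36 libraries lay below them, 2.52-fold under LPS (log2 change −1.09, SE 0.10, adjusted p = 3.48e-05). Its interaction passed (interaction −1.12, SE 0.14, adjusted p = 0.00141). Cited2, which competes with the alpha subunit for its coactivators, was the most abundant of the 34 genes per length, with means of 250.3 ± 13.5, 262 ± 2.74, 423 ± 52.4 and 414 ± 27.4 FPKM (SD, n = 3). It rose with LPS without the antibody (log2 change 0.75, SE 0.10, adjusted p = 5.93e-05) and with it (log2 change 0.66, SE 0.10, adjusted p = 0.00018). Between LPS+anti-CD36 and LPS its groups overlapped, and the 95% interval of the change was −0.24 to 0.19.

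Of the 6 remaining targets, Ndrg1, Narf and Ankrd37 fell with LPS+anti-CD36 against LPS. Ndrg1, a stress-responsive gene of cell differentiation, was at 14.4, 15.6 and 14.5 FPKM untreated, 13.3, 15.2 and 15.3 with anti-CD36, 24.7, 22.7 and 20.8 with LPS and 4.77, 4.86 and 4.26 with both. Untreated and anti-CD36 libraries overlapped, LPS lay above them, and the combination lay below all. Ndrg1 rose 1.53-fold with LPS (log2 change 0.58, SE 0.09, adjusted p = 0.000168) and was 4.92-fold lower with the combination than with LPS (log2 change −2.08, SE 0.09, adjusted p = 2e-07). On this scale it had the largest interaction of the 32 genes (interaction −2.05, SE 0.12, adjusted p = 1.1e-05). With a pseudocount of 0.1 that of Mgarp was larger, −2.60 against −2.25 for Ndrg1.

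Ankrd37, an ankyrin repeat protein, went the other way with LPS. It was at 7.26, 5.19 and 5.02 FPKM untreated, 6.48, 6.64 and 7.36 with anti-CD36, 3.32, 2.83 and 2.63 with LPS and 1.34, 1.29 and 1.08 with both. LPS lowered it (log2 change −0.79, SE 0.12, adjusted p = 0.000196), the antibody lowered it further (log2 change −0.81, SE 0.12, adjusted p = 0.00148), and the interaction passed (interaction −1.02, SE 0.17, adjusted p = 0.0118). Narf, a nuclear prelamin-binding protein, was at 2.99, 2.78 and 2.90 FPKM untreated, 1.90, 2.85 and 2.20 with anti-CD36, 2.76, 3.22 and 3.27 with LPS and 1.91, 1.96 and 1.54 with both. The combination was below every LPS library but overlapped anti-CD36 alone, and the fall against LPS was 1.71-fold (log2 change −0.54, SE 0.11, adjusted p = 0.00758).

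Wsb1, Ppfia4 and Car9 did not pass in that comparison. Wsb1, a ubiquitin ligase subunit, had a mean of 60.1 ± 20.0 FPKM (SD, n = 3) with LPS and 39.0 ± 5.52 with the combination. Its LPS libraries ran from 38.4 to 77.9 FPKM and overlapped the combination, and its change was −0.56. Ppfia4, a liprin scaffold protein, fell 2.90-fold with LPS (log2 change −0.78, SE 0.07, adjusted p = 4.33e-06) and was at 0.611 ± 0.0780 FPKM with LPS and 0.571 ± 0.0645 with both (SD, n = 3). The 95% interval of the difference was −0.20 to 0.13. Ppfia4 met the filter only through libraries without LPS, where it is high, so its fall with LPS is given as a description. Car9, the cell surface carbonic anhydrase often used as a hypoxia marker, was low, from 2.06 ± 0.248 FPKM untreated to 3.26 ± 0.350 with the combination (SD, n = 3). It rose with LPS by a small margin (log2 change 0.27, SE 0.10, adjusted p = 0.0459), in 10 of 21 alternative settings (adjusted p up to 0.143). That call was lost without untreated replicate 2 or 3, LPS replicate 1 or 2, any 1 of the anti-CD36 libraries, and replicate 1 or 3 of LPS+anti-CD36. The Car9 call was also lost with no filter and with only the groups compared. The change of Car9 with the antibody added was positive and did not pass (log2 change 0.20, SE 0.10, adjusted p = 0.198).

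**Figure D3:**
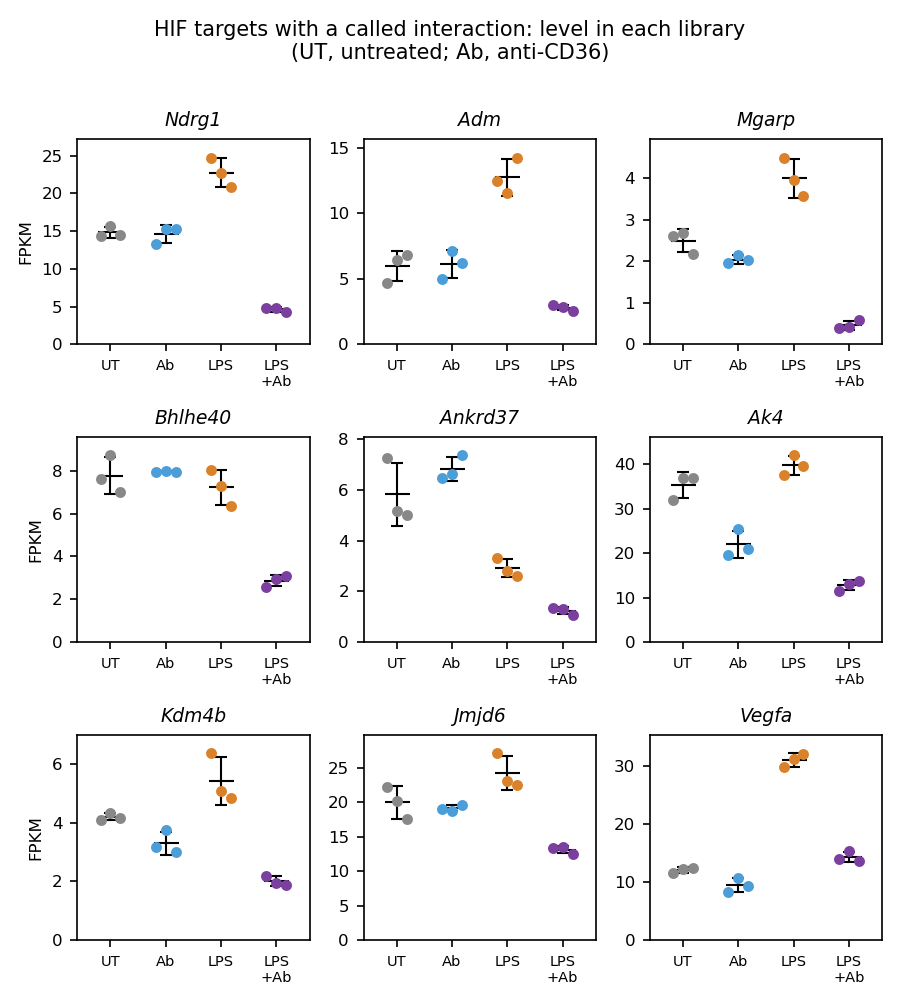
Level (FPKM, linear axis from 0) in each of 12 libraries of the 9 target genes whose interaction of LPS and anti-CD36 passed; points are libraries, the bar is the mean and whiskers are ± 1 SD (n = 3). The 3 LPS+anti-CD36 libraries are the lowest in every panel but that of Vegfa, where they lie between the untreated and the LPS libraries.

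The interaction asked whether the LPS change differed with the antibody present. It passed for 12 of the 32 genes, all with a lower LPS change in its presence (0.788% of all tested genes), and for 0 in the other direction (0.496%). The 12 were Egln1, Egln3, Vhl, Kdm4b, Jmjd6, Vegfa, Adm, Ak4, Mgarp, Bhlhe40, Ndrg1 and Ankrd37. Without Egln3, Kdm5b and Ppfia4 it passed for 11 of 29. The median interaction over the 32 was −0.53, beside 0.01 over all tested genes. In 7 of the 12 (Egln1, Egln3, Adm, Mgarp, Bhlhe40, Ndrg1 and Ankrd37) it passed in every alternative setting in which the gene was tested. The other 5 were lost in some, Vhl in 5 of 21, those without LPS+anti-CD36 replicate 2 or 3, anti-CD36 replicate 2 or 3, and replicate 2 of LPS. The interactions of Kdm4b, Jmjd6, Vegfa and Ak4 were each lost without at least 1 of the LPS+anti-CD36 libraries, and that of Jmjd6 also without anti-CD36 replicate 3. Those of Vegfa and Ak4 were also lost with TPM scaling.

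With the antibody present, LPS raised 5 of the 32 genes (Kdm5b, P4ha1, Ero1a, Vegfa and Cited2) and lowered 15, beside 16.3% and 31.3% of all tested genes. The rises of P4ha1 and Ero1a were each lost in 6 of 22 settings. Without anti-CD36 replicate 1 or 3, or LPS+anti-CD36 replicate 2 or 3, the count of rises was 3 (Cited2, Kdm5b and Vegfa), as with no filter or TPM scaling. The fall of Stc2 was called in 12 of 22 settings. It was lost without anti-CD36 replicate 2 or 3, without LPS replicate 2, without any 1 of the LPS+anti-CD36 libraries, and with median-of-ratios scaling (adjusted p = 0.213). It was also lost with no filter and with the GC content and length trend removed, with or without the replicate block. Leaving out Egln3, Kdm5b and Ppfia4, 4 of 29 rose and 13 fell. The median was −0.32, beside −0.12 over all. For Adm the LPS change was 0.99 without the antibody and −0.89 with it. For Egln1 it was 0.09 and −1.13, and for Egln3 0.41 and −0.50. In 20 of the 32 genes the combination had the lowest of the 4 group means, as in 30.2% of all tested genes. In 20 its libraries were all below the untreated ones, as in 41.4% of all.

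**Figure D4:**
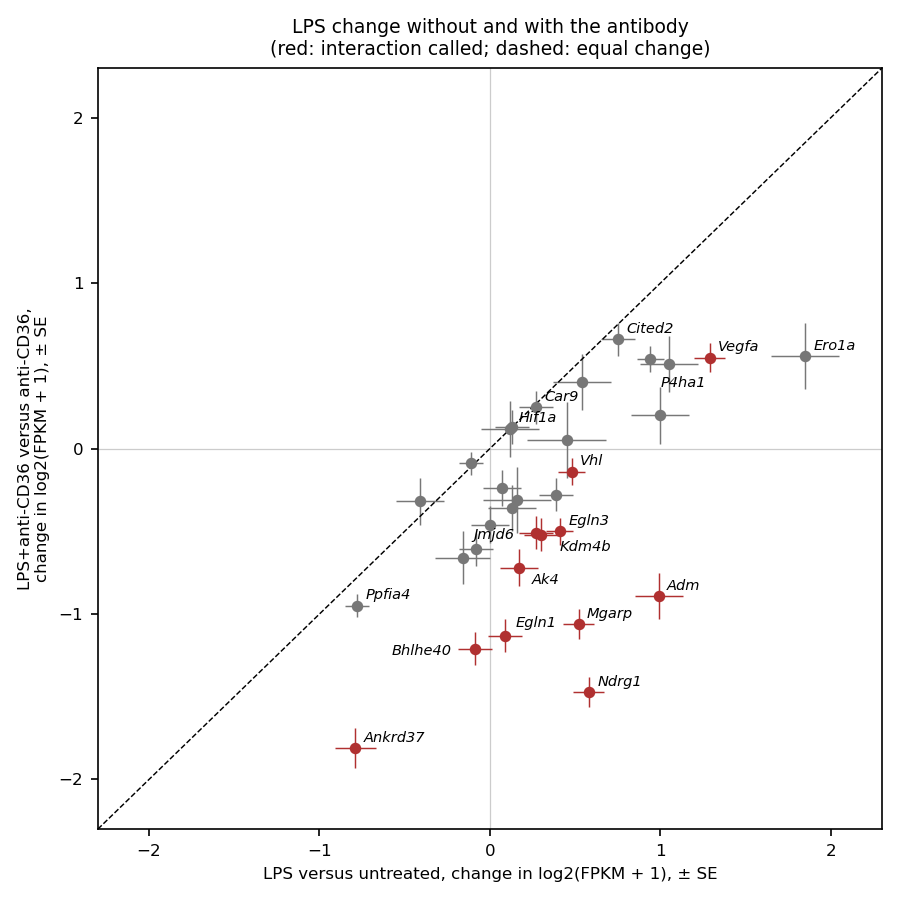
Change with LPS in log2(FPKM + 1), without the antibody (horizontal) and with it (vertical), for the 32 tested HIF genes, each with its SE; red marks an interaction that passed and the dashed line equal change. All 12 red points lie below the line, and Hif1a, Cited2 and Car9 lie close to it.

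The 2 comparisons of antibody with no antibody share no libraries. The change was below 0 in both for 24 of the 32 genes (75.0%), and for 39.2% of all tested genes. Without LPS alone it was below 0 for the same number, 24, and for 51.4% of all tested genes. Across genes the 2 changes had a Pearson correlation of 0.38 over the 32 and 0.68 over all tested genes. Without LPS the antibody libraries were all below the untreated ones for 8 genes (Hif1a, Hif1an, Kdm4b, Kdm5b, Vegfa, Stc2, Ak4 and Mgarp), as in 10.5% of all tested genes. Of these 8, only Ak4 passed. With the trend of GC content and gene length removed, 7 genes passed, all lower: Ak4, Egln1, Hif1a, Hif1an, Kdm4b, Mgarp and Vegfa. In that setting 444 of all 10211 genes tested passed, 269 of them lower, beside 35 in the main fit.

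Other genes of the pathway were counted from lists of known regulators, targets and paralogs. Of 19 tested regulators outside the 34 genes, 3 fell with LPS+anti-CD36 against LPS and 0 rose, with a median of 0.02. Of all tested genes 8.14% fell and 7.34% rose. The regulators that fell were the coactivators Ep300 and Crebbp and the isocitrate dehydrogenase Idh1. Ep300 was at 7.15 ± 0.790 FPKM with LPS and 3.96 ± 0.0985 with both (SD, n = 3) (log2 change −0.71, SE 0.09, adjusted p = 0.000638). Crebbp changed by −0.46 and Idh1 by −0.46. The fourth of that list by p, the Vhl partner Eloc, did not pass (log2 change 0.31, SE 0.11, adjusted p = 0.0755). Ep300 also fell with anti-CD36 alone, from 8.16 ± 0.952 FPKM untreated to 5.40 ± 0.203 (SD, n = 3).

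Of 18 glycolytic and lactate targets 14 fell and 0 rose, beside 8.14% and 7.34% of all tested genes, with a median of −0.66. The regulator Pfkfb3, the glucose carrier Slc2a1, the phosphofructokinase Pfkl and the pyruvate dehydrogenase kinase Pdk1 had the smallest p, with changes of −1.17, −0.91, −0.99 and −1.08. Of 19 other known targets tested, 9 fell and 2 rose (Pdgfb and Edn1), with a median of −0.35. Bnip3, a mitophagy receptor, was at 85.4 ± 4.25 FPKM with LPS and 14.8 ± 2.59 with both (SD, n = 3), a 5.77-fold fall (log2 change −2.46, SE 0.11, adjusted p = 2.62e-07). Its relative Bnip3l changed by −1.61, the glycogen synthase Gys1 by −1.19 and the Myc antagonist Mxi1 by −0.84.

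Of 26 tested genes in a list of paralogs and partners, 9 fell and 1 rose (Vegfc), with a median of −0.19. Over all tested genes 8.14% fell and 7.34% rose. The list was drawn up as paralogs and partners of the 34 genes not known as core HIF targets. Regulation by HIF was not excluded for its genes, Bhlhe41 and Car12 among them, so it is no set of non-targets. The 4 of smallest p were Bhlhe41 (log2 change −1.28, SE 0.08, adjusted p = 4.56e-06), Ndrg2 (log2 change −0.74, SE 0.07, adjusted p = 8.37e-05), P4hb (log2 change −0.87, SE 0.09, adjusted p = 0.000132) and Vegfc (log2 change 0.43, SE 0.08, adjusted p = 0.00602). Bhlhe41 is the paralog of Bhlhe40, Ndrg2 that of Ndrg1, P4hb the partner subunit of P4ha1, and Vegfc a paralog of Vegfa. The interaction passed, all lower, for 0 of the regulators, 3 glycolytic targets, 7 other targets and 4 paralogs. Of all tested genes 0.788% passed in that direction. Differences between the lists were not tested.

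**Figure D5:**
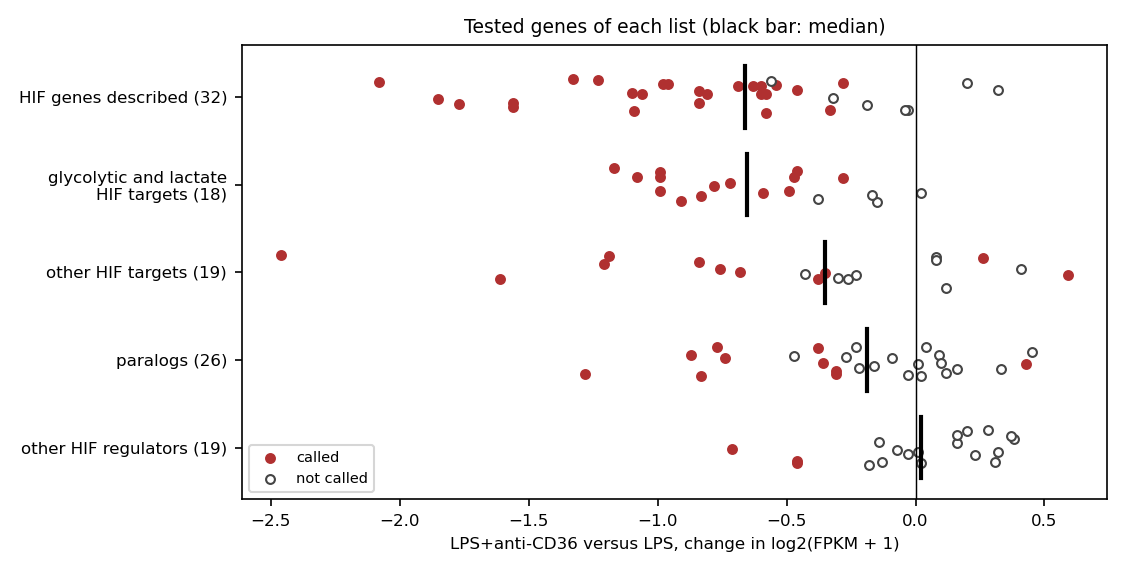
Change in log2(FPKM + 1) between LPS+anti-CD36 and LPS for each tested gene of the HIF set and of 4 lists outside it, with the number of tested genes in parentheses; filled points passed the limma test and black bars are medians. The medians are −0.66, −0.66, −0.35, −0.19 and 0.02 from top to bottom.

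Cd36, which encodes the antibody's target, was at 0.170 ± 0.0405 FPKM in untreated cells, 0.379 ± 0.111 with anti-CD36, 5.86 ± 1.47 with LPS and 11.2 ± 0.974 with both (SD, n = 3). Its mRNA was thus higher, not lower, with the combination than with LPS (log2 change 0.85, SE 0.14, adjusted p = 0.00214).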

How the data were processed

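RNA was sequenced from 12 libraries of RAW264.7 cells, 3 per group. The authors deposited 1 table of FPKM values for 31801 entries, of which 82 repeated symbols were left out. HISAT2 2.0.5 and the builds mm39 and hg38, without roles, are named in the submitters' processing notes. The counting tool, its strand setting, the annotation and filters are not given in the sources used here, so reads of a gene and of an antisense partner cannot be told apart. At GENCODE M21 exon lengths 94.6% of 17889 entries were whole reads in all libraries (tolerance 0.02 reads), which gave depths of 30070447 to 54137809. At 1 FPKM and 2000 bases the counting coefficient of variation was 9.61% to 12.9%, or 13.6% to 18.2% if mates were counted singly. These cover counting error only.

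Log2(FPKM + 1) was fitted with limma 3.58.1 (R 4.3.3) with an intensity trend, over 4 group means and 12 libraries, for the 10276 genes that reached 1 FPKM in 3 or more libraries. Il6 was left out because it repeated another entry's values in 6 libraries. Adjustment was by Benjamini-Hochberg across every tested gene, within each comparison. The fit was also run on simulated counts with the same dispersion for every gene, no replicate or GC effect and only raised levels. That run does not show how the fit performs with the spread of these data. Tables were made with pandas 2.3.3 and numpy 2.4.6 in Python 3.11.15. The genes, lists, tests and alternatives were chosen with earlier results of these data known. Values in every library were given for genes called in LPS+anti-CD36 versus LPS or in the interaction with an absolute log2 change of at least 0.5, and for tested HIF subunits, oxygen sensors and Vhl. From each list outside the 34 genes up to 4 of smallest p were named, and Cd36. The alternatives were a pseudocount of 0.1, no filter, a filter at 5 FPKM, TPM and median-of-ratios scaling, no intensity trend, only the groups compared, a block on the replicate number, removal of the GC content and gene length trend, both together, and leaving out each library.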

Additional observations from a re-analysis of the deposited data

Results flagged for a closer look

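For 12 genes the change with LPS differed with and without the antibody, by the interaction term of the limma model over all tested genes. The interaction, in log2 units of FPKM + 1 with 3 libraries per group, was −2.05 for Ndrg1, −1.87 for Adm, −1.57 for Mgarp, −1.22 for Egln1, −1.12 for Bhlhe40, −1.02 for Ankrd37, −0.91 for Egln3, −0.89 for Ak4, −0.82 for Kdm4b, −0.78 for Jmjd6, −0.74 for Vegfa and −0.62 for Vhl. The same test flagged 0.788% of all tested genes in this direction. For Ndrg1, Adm, Mgarp, Egln3, Kdm4b and Jmjd6 the LPS change was called higher without the antibody and called lower with it. The higher call was lost for Kdm4b without untreated replicate 1 or 3 or LPS replicate 1. For Jmjd6 it was lost without untreated replicate 2 or 3 or LPS replicate 1 or 2. Both were also lost with only the groups compared. Egln3 met the filter on low values through the LPS libraries, so its value is a description. For Vegfa it was called higher in both. Vhl was called higher without the antibody and was not called with it. Egln1, Bhlhe40 and Ak4 were called lower with the antibody and were not called without it, and Ankrd37 was called lower in both.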

How the results depend on the processing

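Of the HIF genes called between LPS+anti-CD36 and LPS, 25 in the report, leaving out 1 library gave 17 to 28, the lowest without LPS replicate 2 or without LPS+anti-CD36 replicate 2, and scaling gave 24 (median of ratios) or 23 (TPM). For LPS versus untreated, 19 in the report, leaving out 1 library gave 15 to 19, and the filter at 5 FPKM gave 12 because it left 24 genes tested. For LPS+anti-CD36 versus anti-CD36, 20 in the report (5 higher, 15 lower), the range was 17 to 23 (3 to 6 higher, 14 to 17 lower), and the split was 8 and 13 with median-of-ratios scaling and 3 and 17 with TPM scaling. For the interaction, 12 in the report, the range was 8 to 14, the block on the replicate number gave 16, and that block together with removal of the trend of GC content and gene length gave 20. For anti-CD36 versus untreated, 1 in the report, leaving out 1 library gave 0 to 1. It gave 0 with TPM scaling and with only the groups compared, 5 with the replicate block (Ak4, Hif1a, Hif1an, Plod2 and Vegfa), 7 after removal of the trend of GC content and length, and 8 with both. The causes of these differences were not tested. No called value of the 34 genes changed sign.

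Deviations from group means correlated by 0.45 to 0.78 between libraries of replicate 1, −0.32 to 0.43 for replicate 2 and −0.07 to 0.81 for replicate 3. In 20 of 36 checks a library matched best with its own number. Each check chose among 3 libraries, so 20 is more than random matching would give on average. Structure shared by replicate number is therefore not excluded. The labels state no pairs and the correlations were uneven, so the main fit did not pair the numbers. With the replicate block 28 genes were called between LPS+anti-CD36 and LPS (1 higher, 27 lower), 20 between LPS and untreated and 24 between LPS+anti-CD36 and anti-CD36. Of all 10276 tested genes the block called 3645, 6131 and 6022 in these comparisons, in the same order.

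Counts over all genes moved more. Between LPS+anti-CD36 and LPS, 1590 in the report, leaving out 1 library gave 549 (LPS+anti-CD36 replicate 2) to 3965 (LPS replicate 1), and other settings gave 939 (only the groups compared) to 3645 (replicate block). For anti-CD36 versus untreated, 35 in the report, settings gave 0 (only the groups compared) to 1164 (replicate block). Removal of the trend of GC content and gene length gave 444 there, and 996 with the block added. For the interaction, 132 in the report, settings gave 61 to 567. Median-of-ratios scaling moved the median change of all genes from −0.14 to −0.01 for LPS versus untreated and the share of higher calls from 33.4% to 50.8%; the HIF genes' median there was 0.40. TPM scaling moved the share of higher calls between LPS+anti-CD36 and LPS from 47.4% to 31.8%. At low levels depth limits the values: Egln3 and Mgarp rested on 24 to 59 reads per LPS+anti-CD36 library.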
